A study of Homo sapiens with 8 samples.

Results

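The genes described here are 10 feedback targets and antagonists of Wnt signalling: AXIN2, NKD1, RNF43, ZNRF3, DKK1, DKK4, NOTUM, APCDD1, LEF1 and TCF7. They were chosen by name with earlier results of these data known, so their counts beside the shares of all genes are a description only. A gene was read by the probe set that names it alone and has the highest mean over the 8 arrays. Of the 10 genes, 9 were measured in this way, among 19775 genes in all; TCF7 was not analysed here. The measured genes had 17 probe sets between them, and all were used as a check on the chosen ones.

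Gene expression had been profiled on 8 Affymetrix arrays, 2 in each of 4 groups of cells from established human colorectal adenocarcinoma lines. HT29 parental cells were grown in DMEM with 10% fetal bovine serum. HT29 1st spheres were grown in DMEM-F12 to which N2 Plus Supplement and the growth factors EGF and bFGF, at 10 ng/ml each, had been added, so growth as spheres and the change of medium cannot be told apart. SW480 stable lines carried a vector control or had been made to express Snail, the EMT repressor encoded by SNAI1, and both were grown in DMEM with 10% serum. The promoter that drives Snail, and whether each stable line is 1 clone or a pool, are not stated in the labels. No label ties partner arrays to separate cultures, and p-values therefore reflect array-to-array spread that could be technical.

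In the canonical Wnt pathway, ligands bind Frizzled and LRP receptors and thereby spare beta-catenin from a destruction complex built on APC and AXIN proteins. Beta-catenin then enters the nucleus and drives transcription with TCF and LEF factors. Many of the targets are themselves brakes on the pathway: AXIN2 rebuilds the destruction complex, RNF43 and ZNRF3 remove Frizzled receptors from the surface, and DKK proteins and NOTUM act outside the cell on the receptors or on the ligand. This circuit maintains the stem cells of the intestinal crypt, and HT29 and SW480 are both known to carry truncating mutations of APC, which switch it on downstream of the receptors.

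The 9 genes did not move as a block. In HT29 spheres AXIN2 and DKK1 each rose 4.17-fold and none of the other 7 passed the test, where 31.4% of all genes did (12.4% upward and 19.0% downward). The rise of AXIN2 was smaller with its 3 dimmer probe sets, at 1.02, 1.07 and 1.29 log2 against 2.06 with the chosen one. In SW480 cells labelled Snail DKK4 rose 8.38-fold, ZNRF3 rose 2.14-fold and DKK1 fell 8.30-fold, where 16.2% of all genes passed (8.91% upward and 7.34% downward). DKK1 thus moved in opposite directions in the 2 comparisons, and the difference between its changes was 5.11 ± 0.31 log2 (limma adjusted p = 5.2e-06). Between the lines grown in serum all 9 differed, against 46.1% of all genes (22.6% higher and 23.5% lower in SW480 vector cells): 7 were higher in SW480 vector cells, APCDD1 and LEF1 by the widest margins, and RNF43 and ZNRF3 were higher in HT29 parental cells.

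Promoter sequence is shown for 2 of the antagonists, DKK1 because it moved in opposite directions and APCDD1 because it separated the lines most. RefSeq windows (GRCh38.p14) were at hand for 5 of the 10 genes, APCDD1, DKK1, LEF1, RNF43 and TCF7, and not for AXIN2, DKK4, NKD1, NOTUM and ZNRF3. The windows of 300 bases were searched on both strands for the words CTTTGAA and CTTTGAT, core letters of the TCF/LEF site, and the 250 bases before the start site are printed 5′ to 3′ with any such word in capitals. The DKK1 stretch is chr10:52314031-52314280 on the plus strand and the APCDD1 stretch chr18:10454385-10454634, also on the plus strand.
DKK1: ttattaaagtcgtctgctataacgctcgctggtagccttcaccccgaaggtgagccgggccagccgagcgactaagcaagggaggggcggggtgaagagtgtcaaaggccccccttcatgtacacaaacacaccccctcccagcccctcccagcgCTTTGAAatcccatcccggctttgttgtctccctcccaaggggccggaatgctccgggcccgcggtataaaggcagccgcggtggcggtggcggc
APCDD1: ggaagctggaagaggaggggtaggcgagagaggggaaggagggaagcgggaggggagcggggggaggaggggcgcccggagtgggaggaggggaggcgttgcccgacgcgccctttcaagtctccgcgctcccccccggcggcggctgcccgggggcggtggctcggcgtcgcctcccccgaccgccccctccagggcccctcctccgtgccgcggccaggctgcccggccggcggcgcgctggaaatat
Of the 7 windows of these genes, only that of DKK1 held either word, a CTTTGAA on the plus strand. It starts 95 bases and ends 89 bases before the start site. Words with other last letters were not searched, such as CTTTGTT, which the DKK1 stretch holds unmarked. The other windows therefore cannot be said to lack a site. Of all 35116 windows of that length, 6.86% held either word. The match describes these letters and no binding was measured.

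Values below are RMA values on the log2 scale, group means are ± SD over 2 arrays, and changes are log2 differences ± SE from limma with p-values adjusted over all genes by Benjamini-Hochberg. A gene is said to rise or fall where the adjusted p is under 0.05. Array medians lay between 5.50 and 5.61, and partner arrays correlated at 0.991 to 0.995; the parental arrays of HT29 matched each other least, with 200 genes at least 2-fold apart, against 10 to 19 for the other partners. Of 11 colon epithelial markers, 10 in parental cells, 11 in spheres and 8 in each SW480 line read above the array medians on both arrays. KRT20, LGALS4 and CDH17 read below them in SW480, and CDH17 also in parental cells. In spheres CDH17 was 4.74 ± 0.15 higher, at 9.82 against 5.08 (limma adjusted p = 4.9e-08). KRT19, KRT20 and CDX1 also rose there, VIL1 fell and the rest did not pass. SNAI1 was 6.36 and 6.34 on the vector arrays and 6.32 and 6.38 on the arrays labelled Snail, a difference of 0.00 ± 0.15 (limma adjusted p = 0.99), so directions in SW480 rest on the label. Of the epithelial markers, CDH1, KRT8 and KRT19 were higher on the arrays labelled Snail, by 0.76, 0.57 and 0.49 (adjusted p = 0.013, 0.011 and 0.019). VIL1 was lower there (-1.06, adjusted p = 0.0023), and the rest did not pass. In HT29 spheres SNAI1 was higher by 1.07 ± 0.15 (adjusted p = 0.00032), at 6.93 and 7.21 against 5.87 and 6.15. The 7 fibroblast markers averaged 5.45 to 5.51 on the parental arrays and 6.12 to 6.26 on the sphere arrays, of which LUM alone passed the test, moving from 4.65 to 8.43, while the other 6 moved by -0.0090 to 0.31 (adjusted p = 0.19 or above). The endothelial and leukocyte markers averaged 4.68 to 6.07 over all arrays. Of these, PECAM1 and CD3E were higher in spheres, by 0.57 ± 0.16 and 0.39 ± 0.13 (limma adjusted p = 0.018 and 0.038). PECAM1 was lower under the Snail label, at -0.55 ± 0.16 (adjusted p = 0.0375). Between the lines PECAM1 was 1.07 ± 0.16 higher in vector cells and CD14 was lower, at -2.57 ± 0.20. The rest passed in none of the 3 comparisons. Control probe sets moved too: those for 18S and 28S ribosomal RNA were 1.40 and 0.94 log2 higher on the arrays labelled Snail, and the BioC spike-in was 1.64 log2 higher in spheres than in parental cells and 1.53 higher in vector cells. The BioB, BioD and Cre spike-ins moved less against parental cells, by 0.39, 0.14 and 0.091 in spheres and 0.21, -0.0038 and -0.095 in vector cells. All these spike-ins were lower on the arrays labelled Snail than in vector cells, at -0.27 to -0.46. The part of the control probe sets in the results was not tested.

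**Figure D1:**
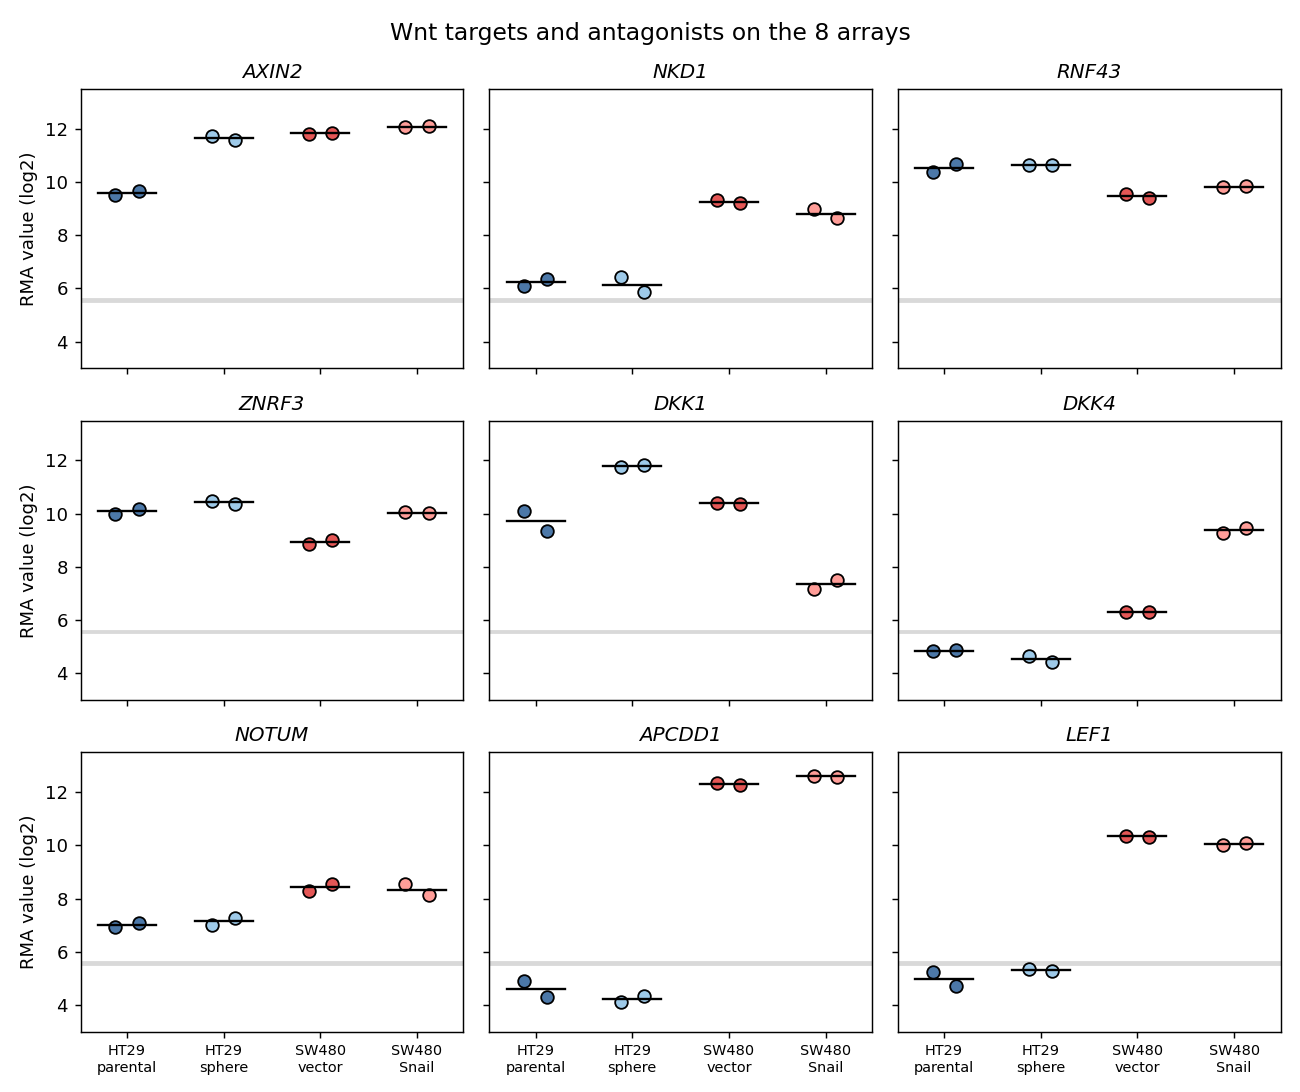
RMA value (log2) of each gene on every array: points are arrays, bars are means of 2 arrays and the grey band spans the array medians, 5.50 to 5.61. AXIN2 and DKK1 are higher in HT29 spheres, DKK1 is lowest and DKK4 highest in the arrays labelled Snail, and APCDD1 and LEF1 are under the band in HT29 cells but above 10 in SW480 cells.

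Among the intracellular and membrane feedback inhibitors, AXIN2 changed with sphere growth. AXIN2, a scaffold of the destruction complex and a widely used reporter of beta-catenin activity, read 9.52 and 9.66 on the HT29 parental arrays, 11.72 and 11.58 on the sphere arrays, 11.79 and 11.86 on the vector arrays and 12.06 and 12.09 on the arrays labelled Snail. No groups overlapped, and the spheres lay much nearer to both SW480 lines than to their own parental cells. The rise in spheres was 2.06 ± 0.12 (adjusted p = 2.0e-06); in bulk RNA, more cells that express a gene and more RNA per cell cannot be told apart. Under the Snail label the difference was 0.25 ± 0.12 (adjusted p = 0.21), and the changes in the 2 comparisons differed by 1.81 ± 0.18 (adjusted p = 6.7e-05). SW480 vector cells were 2.23 ± 0.12 above HT29 parental cells (adjusted p = 2.2e-07).

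The 3 dimmer probe sets of AXIN2 gave smaller rises in spheres, of 1.02, 1.07 and 1.29, each past the threshold over all probe sets (limma adjusted p = 0.0012 at most), and the mean of the 4 rose by 1.36. They gave wider gaps between the lines, of 3.27 to 3.33. On these probe sets the sphere means were 6.48, 6.91 and 8.15 against 8.76, 9.18 and 10.13 in vector cells, so that the closeness of spheres to SW480 holds only for the brightest. For the arrays labelled Snail they read -0.29, -0.16 and 0.04, none past the threshold, and averaging all 4 probe sets gave -0.040 (adjusted p = 0.88), so no direction can be given there.

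NKD1, which binds Dishevelled and dampens the signal, read 6.10 and 6.35 in HT29 parental cells and 6.43 and 5.87 in spheres, with overlap. It read 9.31 and 9.20 in vector cells and 8.98 and 8.66 in the arrays labelled Snail. NKD1 was thus higher in both SW480 groups than in both HT29 groups, by 3.03 ± 0.19 between vector and parental cells (adjusted p = 6.1e-07), and its other probe sets gave 1.91 and 2.85. The arrays labelled Snail were 0.44 ± 0.19 lower with the chosen probe set (adjusted p = 0.17), 0.08 lower with another and 1.10 ± 0.15 higher with the third (limma adjusted p over all probe sets 0.00094). The probe sets of NKD1 therefore disagreed in direction in SW480, and their mean gave 0.19 (adjusted p = 0.40).

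The receptor-removing ligases went the other way between the lines. RNF43 read 10.39 and 10.66 in HT29 parental cells, 10.63 and 10.63 in spheres, 9.54 and 9.38 in vector cells and 9.81 and 9.84 in the arrays labelled Snail. Its vector level was 1.06 ± 0.14 below the parental one (adjusted p = 9.1e-05). The sphere difference of 0.10 ± 0.14 lay within the spread of the parental arrays (adjusted p = 0.61). The arrays labelled Snail did not overlap with vector at a difference of 0.36 ± 0.14 (adjusted p = 0.10). It passed with array weights (adjusted p = 0.042) and with limma trend (0.039), where the difference stayed at 0.36 and only the estimated spread changed. On leaving out 1 array it ranged from 0.29 to 0.44.

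ZNRF3, the homologue of RNF43, read 8.87 and 9.01 in vector cells and 10.06 and 10.01 in the arrays labelled Snail. It read 9.98 and 10.19 in HT29 parental cells and 10.47 and 10.38 in spheres, so the arrays labelled Snail fell between the parental values while vector cells stood alone below. The rise in SW480 was 1.10 ± 0.13 (adjusted p = 0.00056), and vector cells were 1.14 ± 0.13 below parental cells (adjusted p = 4.2e-05). In spheres the difference of 0.34 ± 0.13 did not pass (adjusted p = 0.075). It did with limma trend (0.030), without the dimmest 40% of genes (0.040) and without parental array 2 (0.44 log2, adjusted p = 0.042). The changes in the 2 comparisons differed by -0.76 ± 0.19 (adjusted p = 0.012), a call lost without vector array 1 (-0.68, adjusted p = 0.054).

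Among the secreted antagonists, the Dickkopf genes DKK1 and DKK4 moved furthest. DKK1, which blocks the LRP co-receptors, read 10.09 and 9.34 in HT29 parental cells, 11.74 and 11.81 in spheres, 10.42 and 10.37 in vector cells and 7.18 and 7.51 in the arrays labelled Snail. Spheres were highest and the arrays labelled Snail lowest, with no overlap between any groups. The rise in spheres was 2.06 ± 0.22 (adjusted p = 6.0e-05) and ranged from 1.68 to 2.44 on leaving out 1 array. The fall in the arrays labelled Snail was -3.05 ± 0.22 (adjusted p = 2.9e-05; -3.22 to -2.89 on leaving out 1 array). Vector and parental cells differed by 0.68 ± 0.22 (adjusted p = 0.026), less than the 0.76 between the parental arrays themselves. That call was lost without parental array 2 (0.30), vector array 1 (0.65) or vector array 2 (0.70).

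DKK4, another ligand of the LRP co-receptors, read 6.31 and 6.31 in vector cells and 9.29 and 9.46 in the arrays labelled Snail, a rise of 3.07 ± 0.13 (adjusted p = 3.2e-06). It read 4.83 and 4.87 in HT29 parental cells and 4.66 and 4.42 in spheres, below the median of each of those arrays. DKK4 was thus read above the array medians in SW480 cells only, and no detection against background was measured. Vector cells were 1.46 ± 0.13 above parental cells (adjusted p = 8.0e-06), a size that depends on the HT29 background. The sphere difference of -0.31 ± 0.13 did not pass (adjusted p = 0.11) but did after quantile normalisation (-0.38, adjusted p = 0.041). The changes in the 2 comparisons differed by -3.37 ± 0.19 (adjusted p = 3.2e-06), so DKK1 and DKK4, relatives in 1 family, moved oppositely in SW480 cells and only DKK1 passed in spheres. DKK1 and DKK4 were each read by 1 probe set.

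NOTUM, an enzyme that removes the lipid from Wnt ligands, read 6.94 and 7.10 in HT29 parental cells, 7.01 and 7.29 in spheres, 8.29 and 8.56 in vector cells and 8.53 and 8.16 in the arrays labelled Snail. Only the lines separated, by 1.40 ± 0.17 between vector and parental cells (adjusted p = 6.5e-05). The sphere difference was 0.13 ± 0.17 and the SW480 difference -0.08 ± 0.17, with overlapping arrays in both (adjusted p = 0.61 and 0.81).

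APCDD1, a membrane glycoprotein that binds ligands and LRP receptors, gave the widest gap between the lines. It read 4.89 and 4.30 in HT29 parental cells and 4.12 and 4.35 in spheres, below the array medians. It read 12.35 and 12.29 in vector cells and 12.61 and 12.58 in the arrays labelled Snail. The gap between vector and parental cells was 7.72 ± 0.18, or 211-fold (adjusted p = 8.8e-10), and 4.66 with the second probe set. In spheres the difference was -0.36 ± 0.18 (adjusted p = 0.17; -0.65 and 0.011 without parental array 2), and in the arrays labelled Snail 0.28 ± 0.18 (adjusted p = 0.36).

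LEF1, a DNA-binding partner of beta-catenin that is itself a target, followed the same division. It read 5.23 and 4.73 in HT29 parental cells, 5.36 and 5.29 in spheres, 10.37 and 10.33 in vector cells and 10.01 and 10.09 under the Snail label. Both HT29 groups lay below the array medians, and the gap between vector and parental cells was 5.37 ± 0.16 (adjusted p = 3.2e-09). The other probe sets put the gap at 3.33 and at 0.78, each past the threshold, so its size depends on the probe set. For spheres LEF1 gave 0.35 ± 0.16 (adjusted p = 0.14; 0.60 and 0.0093 without parental array 1). For the arrays labelled Snail it gave -0.30 ± 0.16 (adjusted p = 0.25), -0.39 and -0.80 with the other probe sets, of which the last passed over all probe sets (limma adjusted p = 0.0091), and -0.50 with the mean of its probe sets (adjusted p = 0.022).

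**Figure D2:**
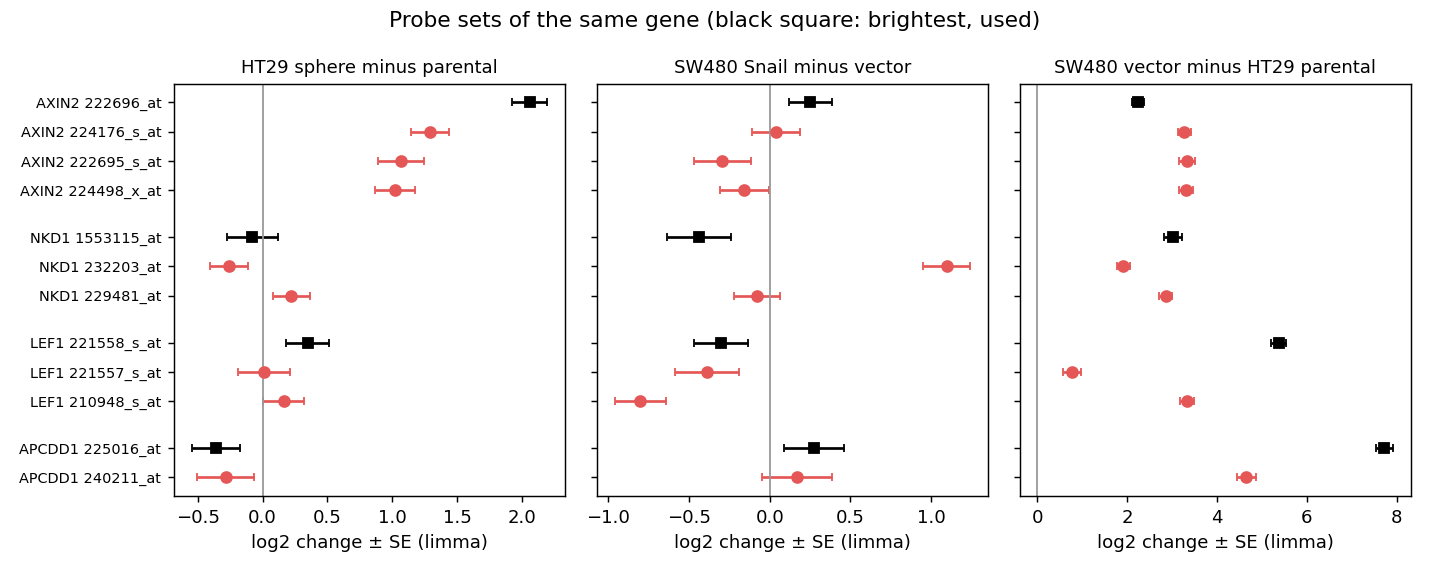
Log2 change ± SE in the 3 comparisons for every probe set of the 4 genes read by more than 1; black squares are the brightest probe sets, red circles the others. AXIN2 lies above 1 in spheres with all 4 probe sets, NKD1 lies on both sides of 0 in the SW480 Snail comparison, and LEF1 runs from 0.78 to 5.37 between the lines.

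Counted together, 2 of the 9 genes rose and 0 fell in spheres (all genes 12.4% and 19.0%). With the Snail label 2 rose and 1 fell (8.91% and 7.34%), and between vector and parental cells 7 were higher and 2 lower (22.6% and 23.5%). Without the dimmest 40% of genes, 6014, 3425 and 7712 genes passed in these comparisons, among them 3, 3 and 9 of the 9 genes. The shares among the genes kept were thus higher than those among all genes. Of the 9, 4 passed for the difference between the sphere and Snail changes, as 27.5% of all genes did: AXIN2 and DKK1 upward (10.6% of all genes) and DKK4 and ZNRF3 downward (16.9%). The median change of the 9 genes was 0.13 in spheres, 0.25 in the arrays labelled Snail and 1.46 between the lines, against 0.04, 0.01 and 0.07 over all genes.  Leaving out parental array 2 raised the count in spheres from 2 to 4, by ZNRF3 and APCDD1. The comparison between lines shares the parental arrays with the sphere comparison and the vector arrays with the Snail comparison, so the 3 are not independent.

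**Figure D3:**
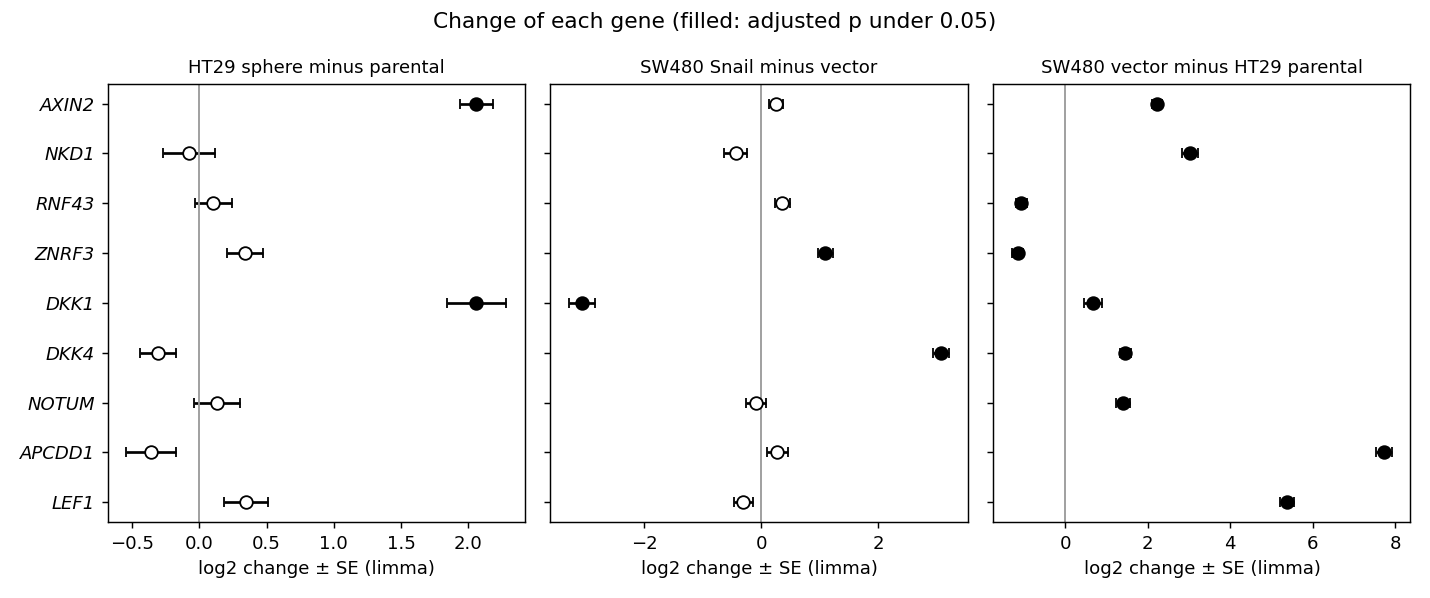
Log2 change ± SE of each gene in HT29 spheres, in the arrays labelled Snail and between the lines, on separate scales; filled points have an adjusted p under 0.05. There are 2 filled points in the first comparison, 3 in the next and 9 in the last, and DKK1 lies at 2.06 in spheres and at -3.05 in the arrays labelled Snail.

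The rest of the pathway was described through 6 lists of 115 genes, also chosen with earlier results of these data known. Of these genes 109 were measured. In spheres 19 rose (17.4%, against 12.4% of all genes) and 28 fell (25.7% against 19.0%). In the arrays labelled Snail 18 rose (16.5% against 8.91%) and 9 fell (8.26% against 7.34%), and between vector and parental cells 37 were higher (33.9% against 22.6%) and 33 lower (30.3% against 23.5%). By list these counts are small: of 48 counts over the 6 lists, 2 directions and 4 comparisons, 30 moved by over 1.5 times under at least 1 alternative, 25 of them on leaving out 1 array. Among 21 measured receptor and R-spondin axis genes 9 fell and 2 rose in spheres (42.9% and 9.52%, against 19.0% and 12.4% of all genes), at a median of -0.43 against 0.04 over all genes. The 2 rises became 0 without parental array 1, parental array 2 or sphere array 2, and 1 without any 1 SW480 array. ROR1, an orphan receptor tyrosine kinase that can bind WNT5A, fell by 2.90 ± 0.14 (adjusted p = 5.8e-07), from 8.82 ± 0.13 to 5.92 ± 0.18. FZD3, a Frizzled receptor, fell by 1.90 ± 0.13. Of the same 21 genes, 2 rose in the arrays labelled Snail, FZD6 by 0.47 ± 0.13 and LGR6, an R-spondin receptor, by 0.77 ± 0.21 (9.52% against 8.91%), while 0 fell, or 1 without either parental array. FZD6 was lost on leaving out any 1 SW480 array (0.43 to 0.50) and LGR6 on leaving out any of them but Snail array 1. The ROR1 and FZD3 changes differed between the 2 comparisons by -3.15 ± 0.19 and -1.77 ± 0.18 (adjusted p = 5.5e-06 and 7.7e-05); FZD3 lay below the array medians in spheres. Between the lines 8 of the 21 were higher in vector cells and 7 lower (38.1% and 33.3%, against 22.6% and 23.5% of all genes). Among the lower were ROR1 at -2.57 ± 0.14 and LGR4, another R-spondin receptor, at -3.76 ± 0.14, or -1.31 with the mean of its probe sets.

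Of 18 measured ligand and ligand secretion genes 3 rose and 0 fell in spheres (16.7% and 0%, against 12.4% and 19.0% of all genes), WNT11 by 0.89 ± 0.18 and WNT2B by 0.82 ± 0.16 among them. In the arrays labelled Snail 1 rose and 1 fell (5.56% each, against 8.91% and 7.34%): WLS, which carries Wnt ligands to the surface, rose by 0.85 ± 0.15, or 1.42 with the mean of its probe sets, and WNT5A fell by 0.67 ± 0.12. The count of falls became 2 without either parental array or without Snail array 1. WNT5A, a ligand best known for beta-catenin-independent signalling, was 11.84 ± 0.07 in vector cells and 4.56 ± 0.03 in parental cells, 7.28 ± 0.12 apart (adjusted p = 2.9e-10). The HT29 value lay below the array medians, as for APCDD1 and LEF1. WNT6, also below the medians in HT29, was 3.47 ± 0.16 higher in vector cells, or 1.12 with the mean of its probe sets. Of the 18 genes, 8 were higher there and 2 lower (44.4% and 11.1%, against 22.6% and 23.5% of all genes). The count of 8 shrank without vector array 2, and to 4 without the dimmest 40% of genes. The sphere and Snail changes differed by 1.21 ± 0.22 for WNT2B and by -0.93 ± 0.21 for WLS (adjusted p = 0.0026 and 0.0089), or by 0.65 and -1.93 with the mean of their probe sets. The WNT2B values lay below the array medians in every group but spheres, where its rise was 0.54 with that mean.

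Of 15 other extracellular antagonists 2 rose and 2 fell in spheres (13.3% each, against 12.4% and 19.0% of all genes). KREMEN1, a co-receptor of Dickkopf proteins, fell by 1.66 ± 0.21 (adjusted p = 0.00021), but by 0.63 with the mean of its probe sets (adjusted p = 0.024). KREMEN2 rose by 0.80 ± 0.18, by 0.52 without parental array 1, and the call was lost without sphere array 2 (0.68, adjusted p = 0.061). Under the Snail label 1 fell (6.67% against 7.34%) and 0 rose, the rises becoming 1 without either parental array or without vector array 1. SFRP5, a decoy that binds ligands, fell by 0.92 ± 0.12 (adjusted p = 0.0010). Between the lines DKK3, a divergent Dickkopf, was 5.00 ± 0.15 higher in vector cells and SOSTDC1 3.78 ± 0.22 lower (log2 change -3.78). In this list 4 of 15 were higher and 2 lower (26.7% and 13.3%, against 22.6% and 23.5% of all genes). With the mean of its probe sets the DKK3 gap was 2.23, and the lower level lay below the array medians for DKK3 in HT29 (4.12) and for SOSTDC1 in vector cells (4.83). The sphere and Snail changes were -2.21 ± 0.30 apart for KREMEN1, or -0.79 with that mean (adjusted p = 0.046), and 0.94 ± 0.18 for SFRP5. In spheres the 2 falls became 1 without parental array 1 or sphere array 1, and the 2 rises became 0 without sphere array 2 and 1 without any other array except parental array 1.

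The cytoplasmic list held 21 measured genes, of which 3 rose and 3 fell in spheres and 5 rose and 4 fell in the arrays labelled Snail. These are 14.3% each in spheres, against 12.4% and 19.0% of all genes, and 23.8% and 19.0% with the Snail label, against 8.91% and 7.34%. The 3 rises in spheres became 8 after quantile normalisation, 1 without parental array 1 and 0 without sphere array 1. TNKS, the tankyrase that marks AXIN proteins for destruction, fell by 1.10 ± 0.19 in spheres, but averaging its probe sets gave -0.29 (adjusted p = 0.069), and CXXC4 fell by 0.85 ± 0.17. In the arrays labelled Snail CSNK1E, a casein kinase, rose by 1.04 ± 0.12 (adjusted p = 0.00049) and GSK3B, a kinase that marks beta-catenin for destruction, by 0.80 ± 0.12. The 4 falls shrank to 0 or 1 on leaving out 1 SW480 array, and the 5 rises to 3 without Snail array 2 or with the mean of each gene's probe sets, which left CSNK1E at 0.69. CTNNB1, which encodes beta-catenin, differed between the 2 changes by -0.85 ± 0.16 (adjusted p = 0.0035), though not with the mean of its probe sets (-0.34, adjusted p = 0.17), and GSK3B by -0.79 ± 0.17. CTNNB1 did not pass in spheres (-0.15 ± 0.12, adjusted p = 0.39) and was higher on the arrays labelled Snail (0.70 ± 0.12, adjusted p = 0.00295). GSK3B was 1.48 ± 0.12 lower in vector than in parental cells (log2 change -1.48) and DACT1, below the array medians in HT29, 1.80 ± 0.17 higher.

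Of 11 other nuclear partners 2 rose and 5 fell in spheres, and 2 rose and 1 fell in the arrays labelled Snail. These are 18.2% and 45.5% in spheres, against 12.4% and 19.0% of all genes, and 18.2% and 9.09% with the Snail label, against 8.91% and 7.34%. The fall with the Snail label was lost on leaving out any 1 SW480 array, and the 2 rises in spheres became 1 without parental array 1 or sphere array 1. TLE3, a Groucho co-repressor of TCF factors, fell in spheres by 1.12 ± 0.17 (adjusted p = 0.00054) and PYGO2, a beta-catenin co-activator, by 0.80 ± 0.14, but by 0.51 and 0.50 with the mean of their probe sets. For the arrays labelled Snail, TLE3 was 0.63 ± 0.17 higher and BCL9 0.56 ± 0.15 higher, calls lost on leaving out any of 3 and any of 4 SW480 arrays. TLE1 and TCF7L2, the main TCF factor of intestinal epithelium, were lower in vector than in parental cells, at -2.58 ± 0.13 and -1.71 ± 0.12 (TCF7L2 at -1.11 with that mean), while LEF1 was higher there. In this list 6 of 11 were lower between the lines and 2 higher (54.5% and 18.2%, against 23.5% and 22.6% of all genes). The count of 6 shrank without vector array 2, and the count of sphere falls shrank without sphere array 1. The sphere and Snail changes differed by -1.75 ± 0.24 for TLE3 (-1.10 with that mean) and by -0.71 ± 0.17 for TCF7L2, the latter lost without vector array 2 (-0.65, adjusted p = 0.053) and with the mean of its probe sets (-0.19, adjusted p = 0.44).

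Other described targets split in both comparisons. In spheres 7 of 23 rose and 9 fell (30.4% and 39.1%, against 12.4% and 19.0% of all genes). FGF9, a growth factor, fell by 3.31 ± 0.15 (log2 change -3.31, adjusted p = 4.9e-07), while PLAUR, the urokinase receptor, rose by 3.18 ± 0.16. In the arrays labelled Snail 8 rose and 2 fell (34.8% and 8.70%, against 8.91% and 7.34%), with 5 rising without Snail array 2 or with the mean of each gene's probe sets. ASCL2, a transcription factor of crypt stem cells, rose by 2.46 ± 0.16 (adjusted p = 1.6e-05), or 5.51-fold, and FGF9 by 2.07 ± 0.15. FGF9 moved in opposite directions in the 2 comparisons, -5.38 ± 0.21 apart (adjusted p = 4.1e-07), as did DKK1 with the signs turned, and the changes of PLAUR were 4.51 ± 0.23 apart. Between the lines TNFRSF19, the receptor TROY, was 4.05 ± 0.16 higher in vector cells and the protease gene MMP7 was lower, at -4.37 ± 0.20, the lower level again below the array medians.

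**Figure D4:**
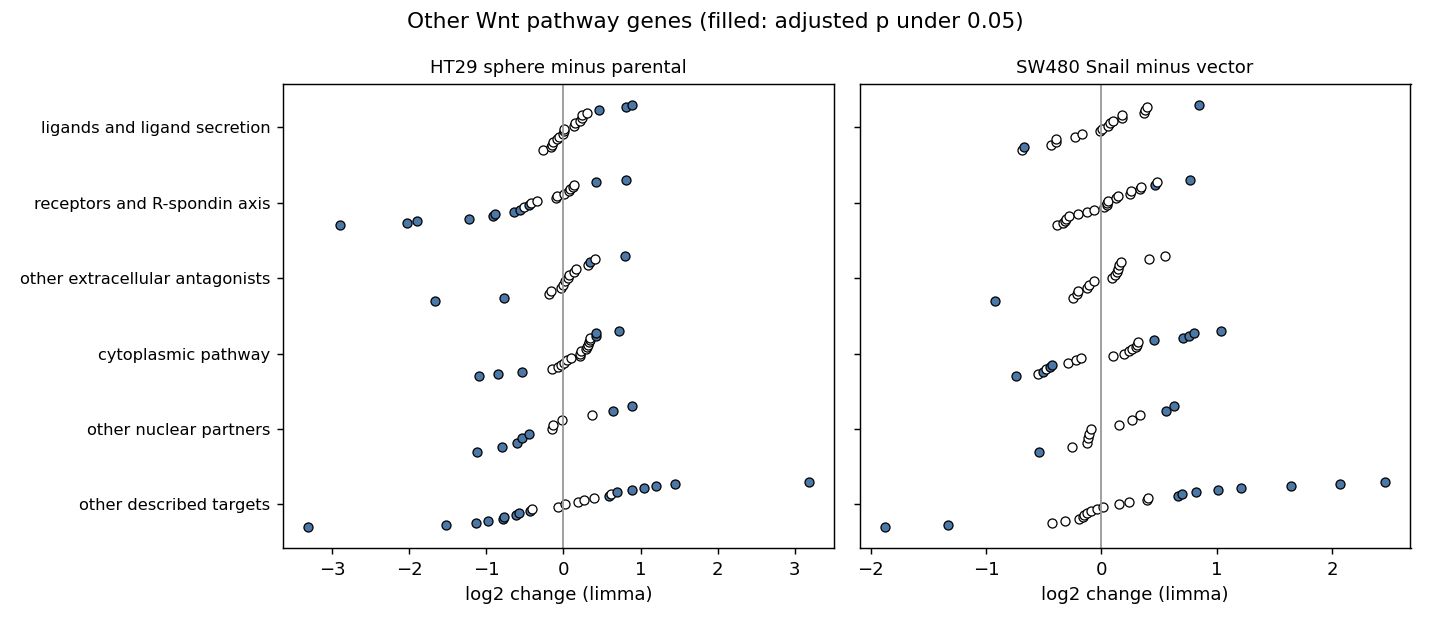
Log2 change of 109 other Wnt pathway genes by list in HT29 spheres and in the arrays labelled Snail; each point is a gene, sorted within its list, and filled points have an adjusted p under 0.05. Receptors reach -2.90 in spheres, and described targets run from -3.31 to 3.18 there and up to 2.46 in the arrays labelled Snail.

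Genes with the most similar profile over the 4 group means, each centred on its own mean, were found by Euclidean distance for AXIN2, DKK1 and DKK4 among 19774 others. For AXIN2 they were OLFML2A (distance 0.17 log2), TUBB2A (0.24) and PLIN2 (0.35). These hold for its brightest probe set only, because the dimmer ones put spheres well below vector cells and were not searched. TUBB2A, a beta-tubulin, had group means of 9.53, 11.54, 11.95 and 12.24 in parental, sphere, vector and Snail-labelled cells. For DKK4 they were PRR9 (0.60), CXCL14, a chemokine (0.84), and FGF3 (0.85), with means of 8.26, 8.65 and 8.95 on the arrays labelled Snail against 4.83, 6.11 and 6.99 in vector cells. For DKK1 the nearest were farther off: SYTL2 (1.07), SERPINE2, a secreted protease inhibitor (1.23), and TMEM132D-AS1 (1.34). With 4 points per profile such closeness is a description.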

How the data were processed

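RNA of 8 samples had been hybridised to Affymetrix arrays. The authors deposited RMA output, a log2 expression value for each probe set on each array, per the submitters' processing notes; neither version nor probe definitions are stated there. RMA evens out the arrays' distributions, and no further scaling was applied. Arrays carry no read depth, and precision is limited by 2 arrays a group. Probe sets (54675, of which 62 controls) were named through GEO's platform annotation: 41091 named 1 gene, 1801 several and 11721 none. Of those naming 1 gene, 41037 matched RefSeq identifiers (GRCh38.p14, names only). The brightest probe set represented each of 19775 genes.

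Group means were fitted to all 8 arrays with limma 3.58.1 (R 4.3.3), with 4 residual and 6.10 prior degrees of freedom, two-sided, adjusted by Benjamini-Hochberg, threshold 0.05; the script was tested on simulated data. An exact permutation test of 2 against 2 arrays cannot reach the threshold and was not used.

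Named were the 10 genes, SNAI1, up to 2 genes of each pathway list and comparison with the lowest adjusted p past the threshold, and the 3 nearest profiles of AXIN2, DKK1 and DKK4. KRT20, LGALS4, CDH17, LUM and the other cell type markers given by name were named after their values were seen. Members and lists were chosen with earlier results of these data known. Alternatives were each line fitted alone, array weights, limma trend, quantile normalisation, a filter on dim genes, the mean of probe sets, a fit on all probe sets, leaving out each array, and the replicate number as a block.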

Additional observations from a re-analysis of the deposited data

How the results depend on the processing

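The 9 genes gave 36 changes over 4 comparisons, and 558 values under the alternatives: 529 kept direction and side of the threshold, 16 newly passed, 4 no longer passed and 9 changed sign. Those that changed sign missed the threshold before and after. With the mean of probe sets these were AXIN2 (-0.040) and NKD1 (0.19) in the arrays labelled Snail and the difference of the NKD1 changes (-0.23). On leaving out 1 array they were NKD1 in spheres (range -0.36 to 0.20), NOTUM in spheres (-0.0086 to 0.27) and in the arrays labelled Snail (-0.27 to 0.11), and RNF43 in spheres (-0.032 to 0.24), besides SNAI1 in the arrays labelled Snail (-0.028 to 0.035). The cause was not tested.

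Over all genes 3213 passed in the arrays labelled Snail, and 1447 to 4087 on leaving out 1 array, 1447 to 1602 where that was an SW480 array, which leaves 1 array in a group, assumed to vary like the others. With array weights the count was 4649, and with each line fitted alone 4004. In spheres 6200 genes passed, but 5295 with array weights and 5101 with each line fitted alone. The main fit gives a gene 1 spread for all 4 groups, although the parental arrays matched each other least. Of the 9 genes, 2 to 4 passed in spheres on leaving out 1 array, 3 to 4 in the arrays labelled Snail, 8 to 9 between the lines and 3 to 5 for the difference. The labels do not state whether equal replicate numbers pair arrays. Differences between partner arrays correlated at -0.06 to 0.06 between groups, which shows no strong shared effect of the number. With the number as a block (replicate block) 2, 3, 9 and 4 genes passed in the sphere, Snail, line and difference comparisons. HT29 values of DKK4, APCDD1, LEF1, WNT5A, WNT6, DKK3, DACT1, SFRP5 and TNFRSF19 and SW480 values of SOSTDC1 and MMP7 lay below the array medians, where signal over background limits any fold.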
